A study of Mus musculus with 6 samples.

Results

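Wild type granulosa cells taken 4 h after human chorionic gonadotropin (hCG) were compared with wild type granulosa cells that received no hCG. The comparison rests on 2 of the 6 arrays of the study, 1 for each time, and on 11554 of 18194 measured genes, those with an intensity of at least 64 on the brighter of the 2 arrays. A gene was called higher or lower when its intensities differed at least 2-fold, and "rose" and "fell" are used only of such genes. With 1 array a time, no replicate error and no p-value exist for this difference.

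All mice were immature and 23 days old. Every group had been given 5 IU of equine chorionic gonadotropin (eCG) 48 h earlier, which drives follicles to the preovulatory stage, so the 0 h array already shows eCG-stimulated cells. The cells at 4 h had then had 5 IU of hCG. A wild type array at 2.5 h and 3 arrays of knockout cells at 0 h, 2.5 h and 4 h are given beside the comparison. The knockout genotype is labelled ERK1 knockout and ERK2 fl/fl;Cyp19CRE, meaning that ERK1 is lost throughout the animal and ERK2 is removed by a Cre recombinase under Cyp19 control. The probe sets of the targeted kinases were not analysed here. The labels do not say how many animals gave the RNA of an array.

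Granulosa cells are the somatic cells inside the antral follicle, where they enclose the oocyte. Under follicle stimulating hormone they divide, make estradiol and inhibin, and hold the oocyte in meiotic arrest. The ovulatory surge of luteinizing hormone, for which hCG stands in, ends that state. The cells stop dividing, turn to progesterone synthesis, build a hyaluronan matrix around the oocyte and release prostaglandins, proteases and signals that open the follicle wall.

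On the 6 arrays, 47.1% to 47.6% of probe sets reached intensity 64, and median intensities were 54 or 55. The ratio of 3' to 5' Gapdh probe sets, which rises as RNA degrades, was 4.79 at 0 h and 4.01 at 4 h in wild type. Of 12 granulosa markers listed, all but the aromatase gene Cyp19a1 were measured. All 11 measured granulosa markers were over the floor, and the inhibin alpha gene Inha was at 31030 at 0 h and 27881 at 4 h. All 11 lay below 0 h in wild type and 6 fell, with a median of -1.27 (log2). Their summed intensity went from 144973 to 87973 in wild type and from 140306 to 161162 in knockout. Several of these markers are also members of the receptor and identity lists below. Of 10 neutrophil markers, 0 reached the floor. The summed intensity of 29 oocyte markers was 36646 at 0 h and 24056 at 4 h, that of 8 theca markers 14519 and 6850, and that of 12 stromal fibroblast markers 18607 and 14339. Of the 25 oocyte markers over the floor, 24 lay below 0 h and 1 fell. Of 10 stromal markers, 9 lay below 0 h and 3 fell (Lum, Tcf21 and Ogn). Of 7 theca markers over the floor, 6 lay below 0 h, 1 rose and 1 fell. Across all 11554 genes, 7559 lay below 0 h and 9.04% fell. The summed endothelial markers were at 1902 and 2237 and those of macrophages and leukocytes at 4802 and 5234. The part of these other cell types in the differences below was not tested. In whole samples, fewer cells of a type and less RNA per cell cannot be told apart.

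Falling genes outnumbered rising genes, but rising genes moved further. Of 11554 genes, 1045 fell (9.04%) and 632 rose (5.47%). The median fold was 2.39 among genes that fell and 3.21 among those that rose. A change of at least 8-fold was seen in 13 falling and 110 rising genes. The largest fall was 25.5-fold. A ratio of at least 100-fold was seen in 7 rising genes, whose 0 h intensities were all under the floor, so those ratios depend on the background. The median intensity of the falling genes was 537 at 0 h, 341 at 2.5 h and 206 at 4 h. In the rising genes it was 182.5, 524 and 837.5. Of the 1045 fallen genes, 916 were still over the floor at 4 h.

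The direction of the split depended on the scaling. The median of all 11554 genes was -0.20 (log2, 4 h minus 0 h), with 7559 below and 3952 above 0 h. After cyclic loess normalization, which moved the median to -0.04, 678 genes were lower and 757 higher. After centring on the median, 614 were lower and 795 higher. The falling genes thus made up 62.3% of all calls as deposited, 47.2% with cyclic loess and 43.6% with centring. Many falls lay close to the threshold. Ankrd26 (284 to 142) and Fam171a1 (298 to 149) were just inside it, and Naxe (2731 to 1366) and Rnf141 (1217 to 609) just outside. On the rising side Prkcb (40 to 80) and Hira (164 to 328) were just inside, and Kbtbd13 (274 to 547) and Cldnd1 (1242 to 2476) just outside.

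**Figure D1:**
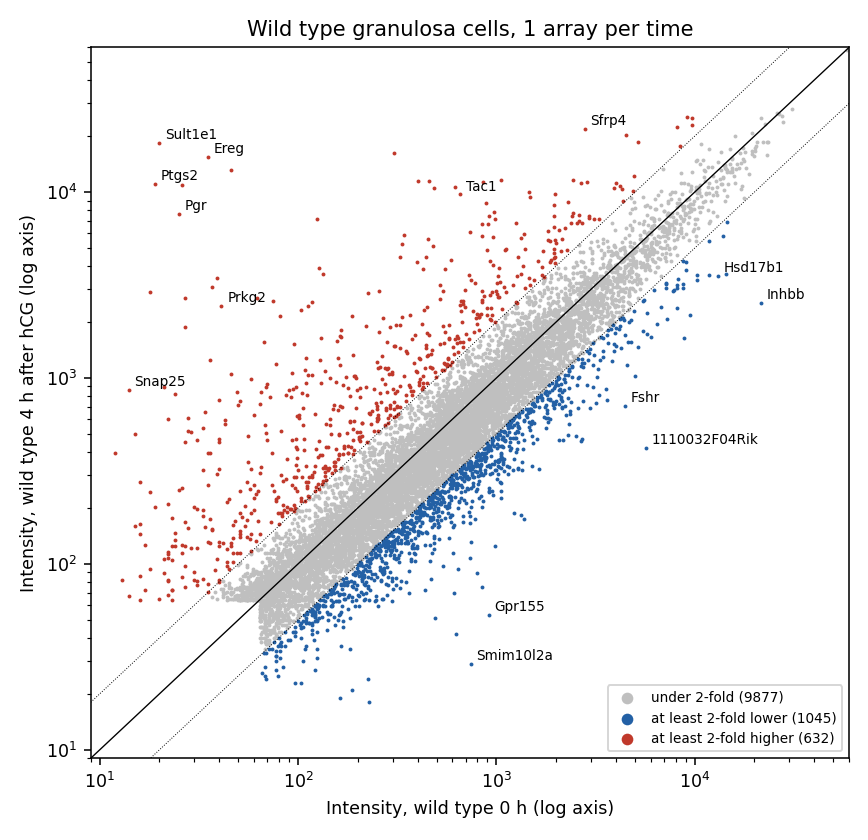
Intensity of each of 11554 genes on the wild type array at 0 h (x axis) and at 4 h after hCG (y axis), both on log axes, 1 point a gene. Blue points are the 1045 genes at least 2-fold lower and red points the 632 at least 2-fold higher; the solid line marks equal intensity and the dotted lines 2-fold. The red points reach far above the upper dotted line at low 0 h intensity, while most blue points lie close under the lower one.

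Genes for hormone receptors of the preovulatory granulosa cell fell in many cases. Of 13 measured receptors for gonadotropins, steroids and growth factors, 7 fell and 0 rose, with a median of -1.27 (log2) against -0.20 over all genes. The falls are 53.8% of the list, against 9.04% of all genes. With all probe sets of a gene averaged, 5 fell. Fshr, the receptor for follicle stimulating hormone, read 4454 at 0 h, 2233 at 2.5 h and 708 at 4 h, a 6.29-fold fall. In knockout it read 5345, 4468 and 3603. Bmpr1b, a type I receptor for bone morphogenetic proteins, went from 6446 through 3926 to 1945 in wild type and from 6891 through 4001 to 4446 in knockout. Its other probe sets gave -1.83 and -1.88. Ghr, the growth hormone receptor, went from 5487 through 2475 to 1785, and in knockout from 5103 through 2763 to 1362. Thus Ghr fell in both genotypes, while Fshr and Bmpr1b ended lower in wild type.

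The remaining falls in that list were 2.41-fold to 2.80-fold. They were Tgfbr3, the inhibin co-receptor betaglycan (3922 to 1402), Amhr2, the receptor for anti-Müllerian hormone (8243 to 3416), and the estrogen receptor genes Esr1 (591 to 220) and Esr2 (690 to 280). The insulin receptor gene Insr lay at 894 and 459, a difference of 1.95-fold. Igf1r, the IGF1 receptor, was at 2968 and 3079. The glucocorticoid receptor gene Nr3c1 lay above 0 h, at 142 and 260. The calls of Tgfbr3 and Esr1 were lost when all probe sets naming the gene were averaged.

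Transcription factors of granulosa identity fell in 5 of 17 cases (29.4%, against 9.04% of all genes) and rose in 0 (median -0.59). Nr0b1, a nuclear receptor that represses steroidogenic genes, fell 4.04-fold, from 485 through 245 to 120. Its knockout values were 521, 148 and 129. Foxo1, which acts in growing follicles downstream of insulin and PI3 kinase, fell from 10209 through 5253 to 3351, and its other 2 probe sets gave -1.58 and -1.77. Foxl2, which maintains ovarian identity, fell from 4262 through 2518 to 1454, and in knockout read 3890, 3703 and 4025. Gata4, a partner of steroidogenic factors, went from 840 to 361 in wild type and from 729 to 1302 in knockout. Not all identity factors moved: Gata6 was at 1603 and 1515 and Wt1 at 385 and 329. Nr5a1 (2213 and 1329) and Nr5a2 (10104 and 5450), which switch on steroidogenic genes, lay below 0 h by under 2-fold. The calls of Foxl2 and Gata4 were lost with averaged probe sets.

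Among genes of inhibin, activin and anti-Müllerian hormone, a single subunit gene fell. Inhbb, the beta B subunit, read 21559 at 0 h, 13813 at 2.5 h and 2518 at 4 h, an 8.56-fold fall that came mostly after 2.5 h. In knockout Inhbb read 20115, 23283 and 22865. A second Inhbb probe set gave -1.90 in wild type. The other subunit genes stayed bright: Inha was at 31030 and 27881, and Inhba, the beta A subunit, at 27756 and 23868. Follistatin, the activin-binding protein made from Fst, was at 12006 and 8943, and Amh at 158 and 115. Of the 14 genes in the list 3 fell (21.4%, against 9.04% of all genes), the others being the receptor genes Tgfbr3 and Amhr2.

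The BMP and SMAD list had 3 of 21 genes lower and 1 higher (median -0.22). The falls are 14.3% of the list, against 9.04% of all genes. The 1 rise is 4.76%, a share near the 5.47% of all genes. Besides Bmpr1b, Grem1, a secreted BMP antagonist, fell from 834 to 339 while knockout went from 801 to 1233. Id3, a helix-loop-helix protein that BMP signals induce, fell from 3631 to 1536. Its relative Id2 rose from 841 to 2934, and from 768 to 2780 in knockout.

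Members of the list of gap junction and cyclic GMP genes of meiotic arrest moved both ways. Nppc, which encodes the C-type natriuretic peptide that granulosa cells send to the cumulus, read 539 at 0 h, 352 at 2.5 h and 97 at 4 h. In knockout it read 242, 210 and 217. Its receptor gene Npr2 lay at 3856, 2846 and 1965, a 1.96-fold difference that did not reach the threshold. The clearance receptor gene Npr3, whose product removes natriuretic peptides, was under the floor at 0 h and rose from 15 through 309 to 501. Prkg2, a cyclic GMP-dependent kinase, read 41, 110 and 2449 in wild type, against 41, 41 and 58 in knockout. Npr1 rose from 21 to 106, though not with a higher floor. Gja1, the connexin of granulosa gap junctions, was at 23379 and 18539. Of the 12 genes over the floor, 3 rose and 1 fell.

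The IGF and PI3K list had 3 falls and 3 rises among 24 genes (median -0.12, or 0.04 with cyclic loess). Each is 12.5% of the list, against 9.04% and 5.47% of all genes. Irs1, the adaptor of the insulin and IGF1 receptors, fell from 7243 through 3543 to 2063, and the ligand gene Igf1 from 2565 through 1463 to 996. The third fall was that of Pdk1 (567 to 204), which encodes a mitochondrial kinase of pyruvate dehydrogenase and is not a member of IGF or PI3 kinase signalling. Pappa, a protease that frees IGF from its binding proteins, rose from 158 to 1279, the binding protein gene Igfbp3 from 33 to 180, and the kinase gene Sgk1 from 1121 to 4909. The call of Igf1 was lost with averaged probe sets, its 3 other probe sets ranging from -1.23 to -0.26.

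In the WNT list 5 of 25 genes rose (20.0%, against 5.47% of all genes) and 1 fell (4.0%, under the 9.04% of all genes). Frzb, a secreted WNT antagonist, fell from 602 through 304 to 114, and from 478 through 286 to 76 in knockout. The risen genes were the WNT modulator Sfrp4 (2784 to 21796), the receptor Fzd1 (267 to 2113), Wnt4 (633 to 1683), Wnt11 (126 to 376) and Sfrp2 (16 to 145). In the Notch list 3 of 15 rose (20.0%) and 1 fell (6.67%, also under the share of all genes). The related target genes Hey1 and Hey2 went opposite ways. Hey2 fell from 950 through 403 to 247, with 935, 377 and 286 in knockout. Hey1 rose from 111 to 1413 at 2.5 h and 809 at 4 h, with 78, 94 and 88 in knockout.

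**Figure D2:**
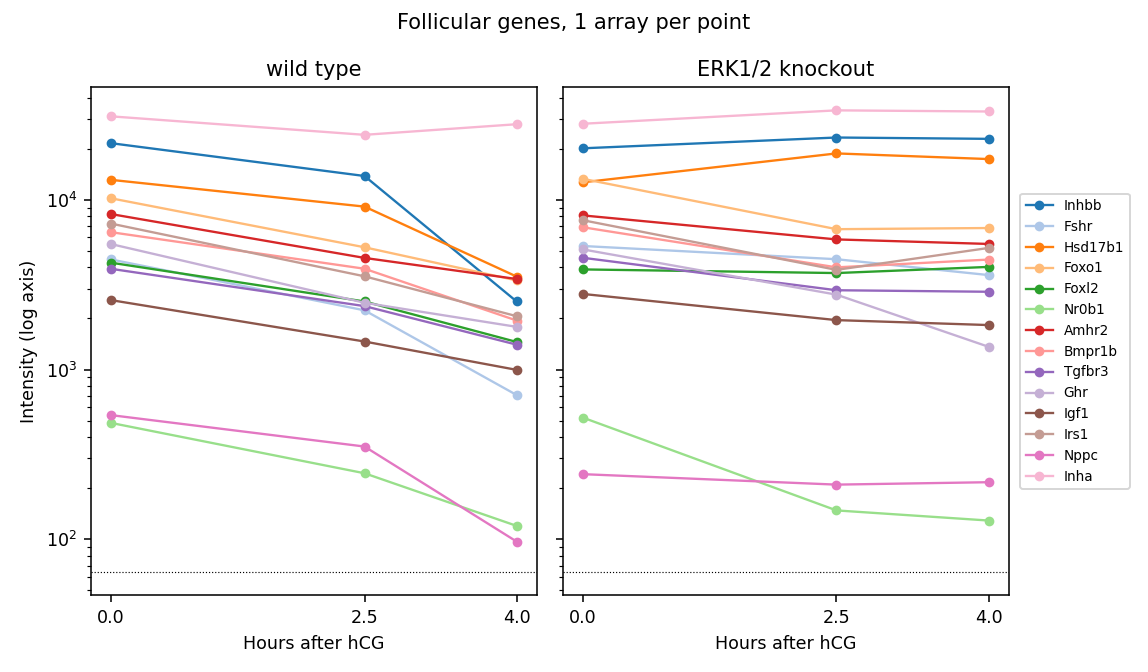
Intensity (log axis) of 14 follicular genes at 0 h, 2.5 h and 4 h after hCG in wild type (left) and ERK1/2 knockout cells (right), 1 array a point, with the floor of 64 dotted. In wild type Inhbb drops from 13813 to 2518 between 2.5 h and 4 h and Fshr from 2233 to 708, while Inha stays near the top; in knockout Inhbb, Hsd17b1 and Foxl2 end at or above their 0 h values.

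Of 18 genes in the steroid list 11 were measured. Of these 11, 5 rose (45.5%, against 5.47% of all genes) and 2 fell (18.2%, against 9.04%), with a median of 0.96. Hsd17b1, which reduces estrone to estradiol, fell from 13111 through 9121 to 3530, while knockout went from 12681 through 18764 to 17381. Sult1e1, which inactivates estrogens by sulfation, had the largest rise of all genes, from 20 (under the floor) through 10513 to 18464. Knockout values of Sult1e1 were 20, 23 and 78. Star, which delivers cholesterol to the inner mitochondrial membrane, rose from 304 through 14678 to 16259. Scarb1, which takes up cholesterol from lipoproteins, rose from 8106 to 22407 and Fdx1, the electron carrier of mitochondrial steroid enzymes, from 9151 to 25464. Cyp11a1, which forms pregnenolone, was at 6878 and 13351, a 1.94-fold difference. Cyp17a1, the androgen-forming enzyme of theca cells, was at 1994 and 1399. Akr1c18, which inactivates progesterone, rose from 111 to 256. The other fall was that of Npc1, which exports cholesterol from lysosomes, at 421 and 210, a call lost with cyclic loess and with centring.

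Among sterol synthesis genes 4 of 19 rose (21.1%, against 5.47% of all genes) and 0 fell. They were Cyp51 (517 to 2655), Sc5d (1401 to 4949), Dhcr7 (892 to 2375) and Idi1 (943 to 2386), and all 4 also rose in knockout, where 3.75% of all 11554 genes did. The call of Sc5d was lost with averaged probe sets.

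Of 34 mitosis genes, 33 lay below 0 h and 3 fell (median -0.52, or -0.33 with cyclic loess). Of all 11554 genes, 7559 lay below 0 h. The 3 falls are 8.82% of the list, a share near the 9.04% of all genes. The cyclin gene Ccnb2 read 1956, 1233 and 686, the proliferation marker Mki67 4406, 2749 and 2058, and Racgap1 479, 311 and 239. Mki67 and Racgap1 lost their calls with cyclic loess and with centring. Of 36 genes of DNA replication, 32 lay below 0 h and 0 fell by 2-fold, the lowest being the polymerase gene Pola1 (343 and 177) and the highest the clamp gene Pcna (5591 and 8387). The median of the replication list was -0.33 in wild type, against -0.20 over all genes, and -0.02 in knockout. That of mitosis in knockout was -0.13.

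In the list of D cyclins and inhibitors 4 of 21 genes rose (19.0%, against 5.47% of all genes) and 2 fell, with a median of 0.02. The 2 falls are 9.52% of the list, a share near the 9.04% of all genes. Btg1, an antiproliferative factor, went from 1983 to 9815 in wild type and from 1947 to 10331 in knockout. Cdkn1a, the cyclin-dependent kinase inhibitor p21, rose from 659 to 2289, and from 584 to 2049 in knockout. Btg2 (351 to 813) and the stress gene Gadd45a (142 to 319) completed the rises. The falls were Rbl2 (258 to 96), a member of the retinoblastoma family, and the kinase gene Cdk6 (1025 to 432), whose call was lost with averaged probe sets. Respiratory chain subunits showed a shift near that of all genes: 27 of 31 lay below 0 h, 0 passed 2-fold, and the median was -0.29. Among all 11554 genes 7559 lay below 0 h, and the median was -0.20.

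The genes with the largest falls were mostly outside the lists. Smim10l2a, for a small membrane protein, read 740, 396 and 29 in wild type, against 591, 302 and 337 in knockout. Gpr155 read 915, 248 and 53, and in knockout 781, 118 and 93. Alms1, whose protein sits at centrosomes and ciliary basal bodies, read 626, 219 and 42, and in knockout 606, 307 and 194. These 3 genes ended under the floor in wild type, so the size of their fall depends on the background. Insyn2b, Clec1a, Tulp2, Kcne2 and Tmprss13 also ended under it. Among bright genes that stayed over the floor, the largest fall was that of 1110032F04Rik, at 5672, 1609 and 420, with 3606, 314 and 256 in knockout. Jakmip3 (847 to 75), Mro (800 to 89), Gm4926 (611 to 70), Inhbb, Rassf4 (985 to 124), Tom1l1 (1382 to 175), the chloride channel gene Pacc1 (1327 to 184), the mitochondrial carrier gene Slc25a35 (735 to 107) and Ccdc68 (643 to 94) followed. In knockout Pacc1 was at 1064 and 982, whereas Rassf4 was at 1101 and 407.

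Signals that act on the cumulus were among the largest rises. Of 9 EGF-like ligands, receptors and regulators, 4 rose (44.4%, against 5.47% of all genes) and 2 fell (22.2%, against 9.04%). The ligand genes Ereg (35, 15945 and 15438), Btc (46, 5768 and 13217) and Epgn (27, 1146 and 2697) started under the floor, and Errfi1, an intracellular inhibitor of the EGF receptor, rose from 1054 to 11607. Hbegf, another ligand of the family, fell 5.69-fold, from 746 through 424 to 131, and likewise from 591 through 149 to 126 in knockout. The receptor gene Egfr fell from 632 to 272, a call lost with averaged probe sets. Thus Ereg, Btc and Epgn rose while Hbegf and the receptor fell.

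In the hyaluronan matrix list 7 of 11 genes rose and 1 fell (median 1.48). The rises are 63.6% of the list, against 5.47% of all genes, and the fall 9.09%, a share near the 9.04% of all genes. Genes under the floor at 0 h enter only through their 4 h intensity, while dim unchanged genes are left out. With no floor the median of the 17 measured genes was 0.29. Tnfaip6, which links hyaluronan to heavy chains, read 18, 2172 and 2897, the pentraxin gene Ptx3 62, 1007 and 2680, and the hyaluronan synthase gene Has2 29, 324 and 509. Cd44, the hyaluronan receptor, rose from 87 to 808 and the proteoglycan gene Vcan from 5151 to 18645. In knockout Has2 was at 21 and 30, while Vcan went from 6425 to 17200. The fall was that of Itih5, of the inter-alpha-trypsin inhibitor family, from 6788 to 2419, with 7458 and 2610 in knockout.

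Prostaglandin genes moved both ways, with 5 of 15 higher (33.3%, against 5.47% of all genes) and 4 lower (26.7%, against 9.04%). Ptgs2, the inducible cyclooxygenase, read 19, 8192 and 11013. The phospholipase gene Pla2g4a rose from 1365 to 3994, the prostaglandin E receptor gene Ptger4 from 136 to 1086 and the uptake carrier gene Slco2a1 from 292 to 1871. Hpgd, the dehydrogenase that inactivates prostaglandins, fell from 5183 through 2677 to 1467, and from 4771 to 1896 in knockout. Ptges, a terminal prostaglandin E synthase, was just past the threshold at 1345 and 664. Falls were also called for Abcc4 (289 to 143) and Ptger3 (100 to 49), and a rise for Ptgfr (276 to 675). The falls of Ptges, Abcc4 and Ptger3 were lost with centring, and the rise of Ptgfr with averaged probe sets.

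Of 20 genes of the progesterone receptor and its ovulatory targets, 9 rose and 2 fell (median 0.66). Pgr, the receptor itself, read 25, 4476 and 7661. Cxcr4, a chemokine receptor, read 27, 291 and 1883, and Snap25, a vesicle fusion protein, 14, 92 and 862. Both were dimmer at 2.5 h than Pgr and had most of their intensity at 4 h. The proteases Adamts9 (423 to 1947), Adamts4 (107 to 411) and Adamts1 (1029 to 2714) and the endothelin gene Edn2 (54 to 204) also rose. Adamts5, a protease of the same family, fell 4.64-fold from 2163 through 1105 to 466, and from 2304 to 610 in knockout.

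The list of neuropeptides and vesicle genes had the highest median of all lists, 2.66, with 12 of 17 genes higher and 1, Nppc, lower. The rises are 70.6% of the list, against 5.47% of all genes, and the fall 5.88%, under the 9.04% of all genes. Several members were under the floor at 0 h and enter only through the 4 h array. With no floor the median of the 22 measured genes was 1.59. Nts (neurotensin) read 26, 6710 and 10934. Tac1, the precursor of substance P, read 653, 3756 and 9712, Nmu (neuromedin U) 39, 2179 and 3455, Npy 46, 555 and 1047, and Adcyap1, the precursor of PACAP, 28, 147 and 518. On the knockout array at 4 h Tac1 was at 534, Nmu at 41, Npy at 57 and Adcyap1 at 34. Pcsk5, a convertase that cuts precursor proteins, rose in both genotypes, from 1483 to 9370 and from 1420 to 6816. Chgb, a granule protein, rose from 36 to 397 and in knockout from 53 to 305. In knockout 3 of the 17 were higher, where 3.75% of all 11554 genes were.

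Coagulation and plasminogen genes rose in 9 of 16 cases and fell in 1 (median 1.05). The rises are 56.25% of the list, against 5.47% of all genes, and the fall 6.25%, under the 9.04% of all genes. F3, tissue factor, read 125, 10756 and 7185 in wild type, against 53, 216 and 178 in knockout. Procr, the protein C receptor, rose in both genotypes, from 118 to 2561 and from 72 to 1943. The urokinase gene Plau rose from 98 to 891, its receptor gene Plaur from 63 to 248 and the inhibitor gene Serpinb2 from 12 to 396. Serpina5, an inhibitor of protein C and urokinase, fell from 301 through 182 to 73, with 211 and 215 in knockout. Plat, the tissue plasminogen activator, was at 2695 and 2774.

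Matrix proteases as a list showed 2 rises and 3 falls among 20 genes. Timp1, a metalloproteinase inhibitor, rose from 479 through 1392 to 5095 and the sheddase gene Adam8 from 151 to 713. Mmp11 fell from 1744 to 613, with 1709 and 662 in knockout. The falls of Timp2 (1957 to 882) and Mmp2 (906 to 412) were lost with cyclic loess and with centring. Luteal genes rose in 11 of 18 cases (61.1%) and fell in 1 (5.56%, under the 9.04% of all genes), with a median of 1.27. Star, Timp1, Sfrp4, Sgk1 and Cdkn1a led the rises, and 12 of the 18 rose in knockout, where 3.75% of all 11554 genes did.

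Signalling genes were still raised at 4 h. Immediate early factors rose in 13 of 29 cases (44.8%, against 5.47% of all genes) and fell in 0 (median 0.83). Klf4 (129, 1805 and 1251), Ier5 (117, 1072 and 1040), Ier3 (973, 11105 and 7782) and Junb (82, 1081 and 517) led them, and each was brightest at 2.5 h. Fos was at 2660, 5241 and 2372, and so ended at its 0 h level. Of 16 ERK feedback genes 9 rose and 0 fell (median 1.19). Dusp4, a phosphatase of MAP kinases, read 69, 397 and 891, Dusp6 94, 404 and 872, and the inhibitor gene Spry2 179, 627 and 883. Unlike the immediate early factors named, these 3 were brightest at 4 h. In knockout 6 of the 16 ERK feedback genes were higher and 1 lower (median 0.11), where 3.75% and 4.5% of all 11554 genes were. In both genotypes 4 were higher.

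In the cAMP list 8 of 29 genes rose (27.6%, against 5.47% of all genes) and 2 fell (6.90%, under the 9.04% of all genes). Crem, which encodes activators and repressors of cAMP-responsive genes, read 103, 3886 and 2316, and the phosphodiesterase gene Pde4b 58, 485 and 985. The cyclase gene Adcy7 (243 to 63) and the phosphodiesterase gene Pde7b (1754 to 698) fell, though not with averaged probe sets. RUNX and C/EBP factors rose in 4 of 7 cases, with Runx1 at 256, 2082 and 2933 in wild type, against 223, 168 and 225 in knockout. Regulators of small GTPases had 5 rises (27.8%) and 3 falls (16.7%) among 18, against 5.47% and 9.04% of all genes. They were led by Rnd3 (81 to 2146) and Rnd2 (1017 to 337), related GTPases that moved in opposite directions.

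Cytokine and innate immune genes rose in 6 of 21 cases (28.6%, against 5.47% of all genes) and fell in 0. Tnfrsf12a, the receptor for TWEAK, rose from 734 to 6113, Tnfaip3, an inhibitor of NF-kappaB, from 56 to 488, the interleukin receptor gene Il1r1 from 957 to 4043 and Il6 from 13 to 82. Of 19 angiogenic factors 5 rose (26.3%) and 3 fell (15.8%), against 5.47% and 9.04% of all genes. The rises included Efnb2 (219 to 1910), Vegfc (74 to 395) and Vegfa (474 to 1126). The falls were those of Pdgfc (2149 to 836), Angpt2 (886 to 372) and Vegfb (319 to 154). Amino acid transporters rose in 5 of 19 cases (26.3%), or 8 with cyclic loess and with centring, and fell in 0. Slc7a8, for neutral amino acids, went from 336 to 5272 and in knockout from 160 to 2258. Slc7a11, the cystine transporter, went from 50 to 719 and in knockout from 65 to 120. The rises of Il1r1 and Vegfa and the fall of Angpt2 were lost with averaged probe sets, as were that of Il6 with a higher floor and that of Vegfb with cyclic loess.

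**Figure D3:**
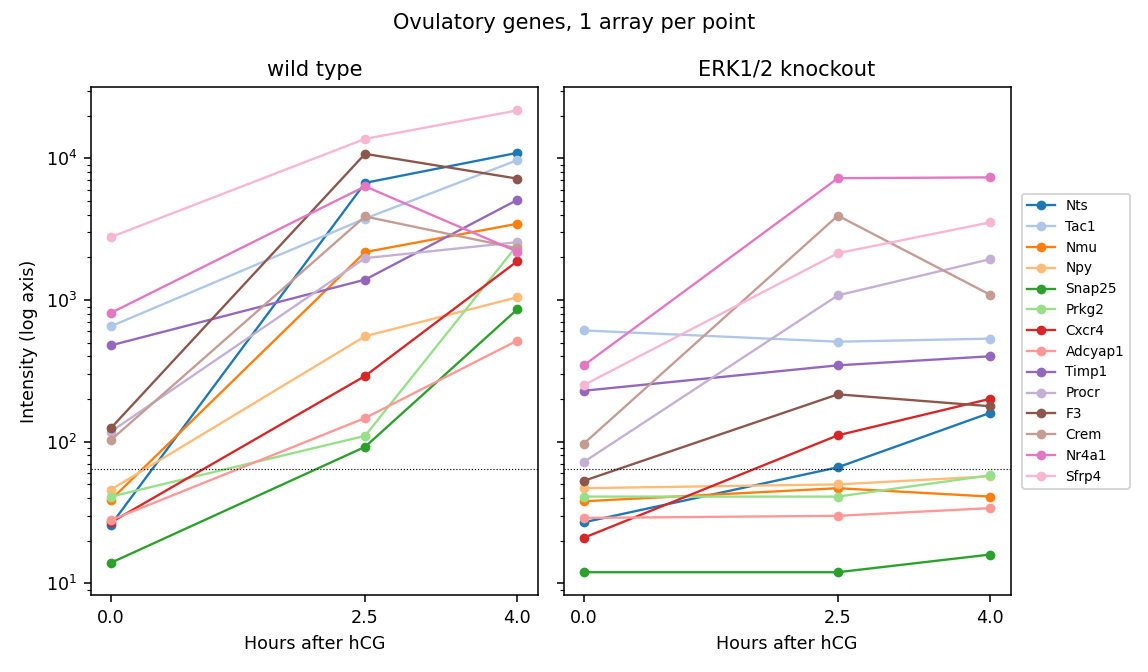
Intensity (log axis) of 14 genes of the induced program at 0 h, 2.5 h and 4 h after hCG in wild type (left) and ERK1/2 knockout cells (right), 1 array a point, with the floor of 64 dotted. Prkg2, Cxcr4 and Snap25 climb steeply between 2.5 h and 4 h in wild type, whereas F3, Crem and Nr4a1 are already past their highest value; in knockout Procr, Sfrp4 and Nr4a1 climb and Nmu, Npy and Snap25 stay under the floor.

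Promoter sequences from RefSeq (GRCm38.p6, 250 bases before to 50 after the start) were found for 9379 of the 11554 genes and searched for short motifs on both strands. The AP-1 motif TGANTCA, which FOS and JUN proteins bind and which reads the same on both strands, was in 53 of 484 risen genes (10.95%), 50 of 848 fallen genes (5.90%) and 577 of all 9379 (6.15%). It occurs in 7.81% of all promoters in the table. The cAMP response element TGACGTCA was in 4.75% of risen, 1.77% of fallen and 3.66% of all genes. The FOX motif GTAAACA was in 4.13%, 3.42% and 3.01%, and the EGR motif GCGNGGGCG in 14.5%, 11.7% and 12.7%. The RUNX motif TGTGGT was in 14.9%, 12.6% and 14.5%. The NR5A half-site CAAGGTCA was in 1.03%, 1.30% and 1.35%, and the palindromic steroid receptor element in 0.41%, 0.83% and 0.35%. These shares are descriptions, and no match says only that the letters are not in this window.

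Of the 30 genes with the largest rises 22 had a promoter in the table, and 5 of these held the AP-1 motif (Nts, Tnfaip6, Nmu, F3 and Serpinb2). Of the 30 with the largest falls 19 had one and 0 held it. The 4 with the largest rise of these 5 are shown. Capitals mark the AP-1 matches, and none overlaps another motif searched. The promoters lie at chr10:102490369-102490668 on the minus strand (Nts), chr2:52037863-52038162 on the plus strand (Tnfaip6), chr5:76363728-76364027 on the minus strand (Nmu) and chr3:121723287-121723586 on the plus strand (F3).
Nts: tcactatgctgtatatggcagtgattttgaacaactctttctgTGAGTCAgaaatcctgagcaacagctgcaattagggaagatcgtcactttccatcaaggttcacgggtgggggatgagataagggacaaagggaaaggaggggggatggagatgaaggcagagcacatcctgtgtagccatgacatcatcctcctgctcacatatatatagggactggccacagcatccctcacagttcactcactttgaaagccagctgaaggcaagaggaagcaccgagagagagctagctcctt
Tnfaip6: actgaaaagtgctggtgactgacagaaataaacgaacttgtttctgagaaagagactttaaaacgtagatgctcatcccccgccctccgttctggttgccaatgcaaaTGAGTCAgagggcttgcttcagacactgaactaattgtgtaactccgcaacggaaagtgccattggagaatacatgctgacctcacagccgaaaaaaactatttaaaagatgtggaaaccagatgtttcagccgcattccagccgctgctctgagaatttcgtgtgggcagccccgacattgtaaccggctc
Nmu: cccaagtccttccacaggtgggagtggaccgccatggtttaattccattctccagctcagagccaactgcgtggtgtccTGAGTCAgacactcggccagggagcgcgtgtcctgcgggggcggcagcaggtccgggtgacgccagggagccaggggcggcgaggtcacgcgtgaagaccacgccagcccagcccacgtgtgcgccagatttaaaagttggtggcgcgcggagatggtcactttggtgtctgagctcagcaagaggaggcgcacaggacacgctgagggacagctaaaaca
F3: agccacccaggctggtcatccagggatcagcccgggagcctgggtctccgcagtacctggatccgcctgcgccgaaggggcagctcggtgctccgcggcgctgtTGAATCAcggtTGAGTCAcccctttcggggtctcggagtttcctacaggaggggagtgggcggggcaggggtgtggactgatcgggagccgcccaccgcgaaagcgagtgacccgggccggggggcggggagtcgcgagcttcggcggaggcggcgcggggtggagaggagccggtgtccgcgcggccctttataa

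The match in the Nts promoter begins 207 bases before the start, that of Tnfaip6 142 and that of Nmu 171. F3 holds 2 matches, 146 and 135 bases before it. The Nmu promoter also holds the EGR motif.

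Genes of the circadian clock fell and rose in nearly equal number, 5 and 4 of 17 (29.4% and 23.5%, against 9.04% and 5.47% of all genes). The output factor genes Dbp (469, 266 and 83) and Tef (1240, 784 and 505), the repressor genes Nr1d2 (1777, 1386 and 537) and Ciart (221, 146 and 70) and Per3 (211, 113 and 86) fell. Bhlhe40 (325, 1674 and 1449), Nfil3 (192, 282 and 586), Cry2 (435, 1852 and 1134) and Per1 (424, 630 and 1030) rose. Nfil3 and Dbp bind like DNA sites with opposite effect on transcription, and here they moved in opposite directions. In knockout Dbp was at 408 and 141 and Nfil3 at 197 and 208. The core genes Clock (580 and 1025) and Arntl (241 and 401) lay above 0 h by under 2-fold. The calls of Nr1d2 and Per3 were lost with averaged probe sets.

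Within glycolysis and the hypoxia response 4 of 27 genes rose (14.8%, against 5.47% of all genes) and 6 fell (22.2%, against 9.04%). Bnip3, a mitophagy receptor, fell from 3597 through 2293 to 757, and the phosphofructokinase genes Pfkl from 1353 to 355 and Pfkm from 765 to 272. The entry steps rose: the glucose transporter gene Slc2a1 went from 679 to 2586 and the hexokinase gene Hk2 from 643 to 1642, with 402 and 527 in knockout at 4 h. Egln3, a prolyl hydroxylase that marks HIF proteins for degradation, rose in both genotypes, from 36 to 1252 and from 27 to 1152. Its second probe set gave 1.16. Of 12 BCL2 family genes, 3 fell and 0 rose: Bnip3, the death-promoting Bmf (188 to 63) and the survival gene Bcl2l1 (891 to 394), whose call was lost with cyclic loess. That of Bmf was lost with averaged probe sets.

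Of 30 genes of the unfolded protein and heat shock response, 3 fell, a share near the 9.04% of all genes, and 0 rose. Hspa1b read 2325, 833 and 567 in wild type, against 948, 1947 and 1827 in knockout. Its near-identical copy Hspa1a read 222, 110 and 91, and probe sets of these copies may share signal. The call of Hspa1a was lost with the mean of both 0 h arrays as the baseline. Herpud1, of endoplasmic reticulum degradation, fell from 2075 to 720. Ribosomal protein genes (0 of 19 past 2-fold, median -0.20) sat at the median of all genes. Among collagens, laminins and integrins 1 of 27 passed, the laminin gene Lama4 (697 to 327), and only as deposited and with a higher or no floor. Markers of smooth muscle, surface epithelium, lymphocytes and red blood cells passed in 0 of 7, 9, 4 and 2 cases. Of 15 reference genes 1 passed, Ywhaz, at 3105 and 7193, with 6 other probe sets between 0.31 and 1.74.

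**Figure D4:**
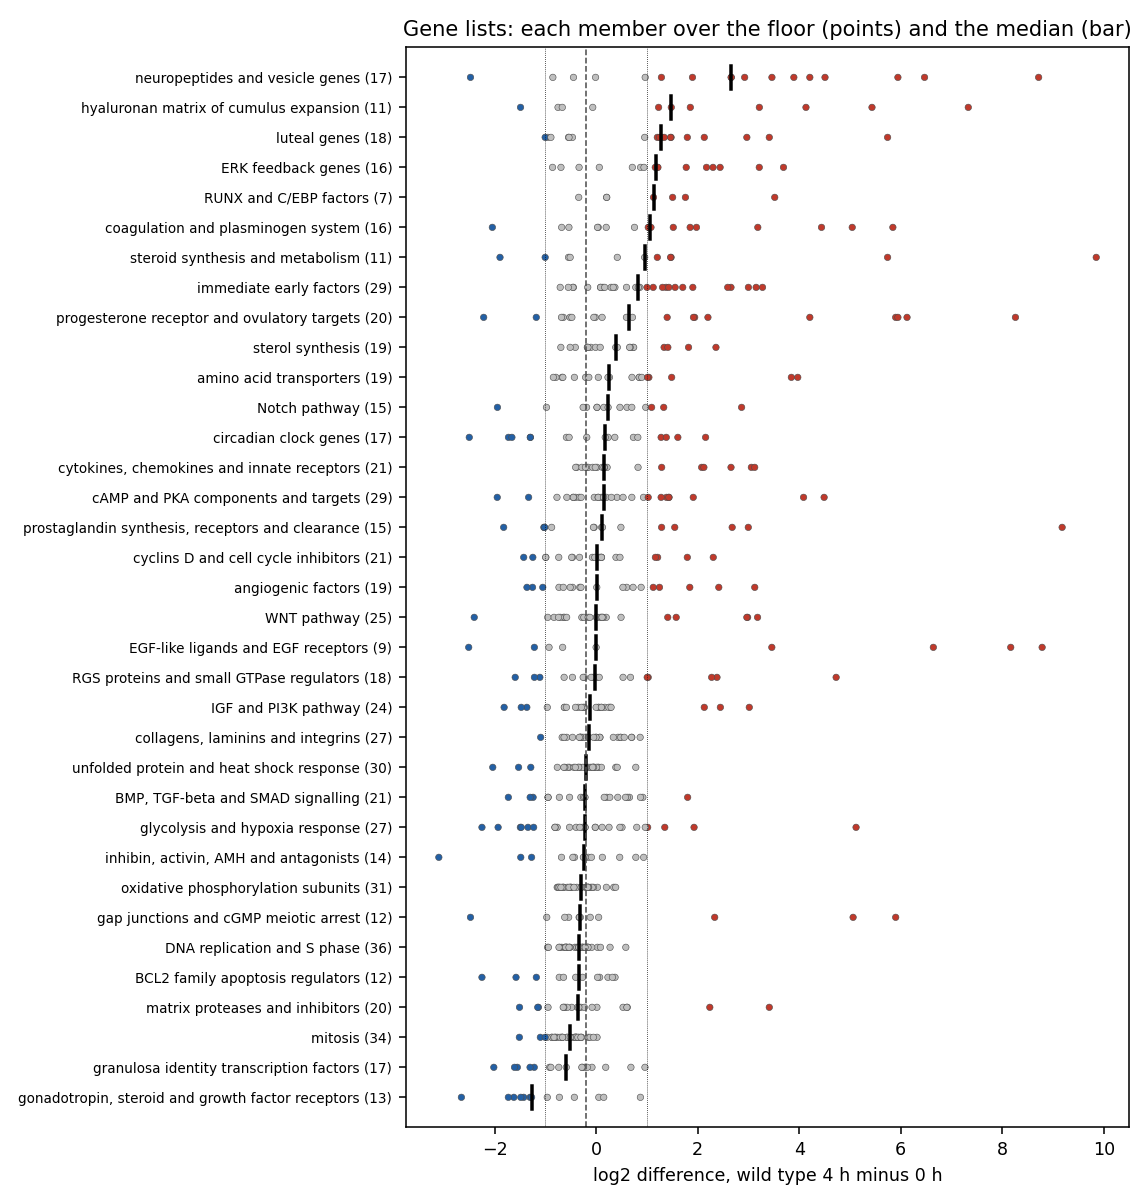
Log2 difference between the wild type arrays at 4 h and 0 h (x axis) for members of each gene list over the floor, 1 point a gene, with the list median as a black bar and the number of members in parentheses. Red and blue points passed 2-fold, grey ones did not, the dotted lines mark 2-fold and the dashed line the median of all genes, -0.20. Among the lists plotted, receptors have the lowest median, -1.27, and neuropeptide and vesicle genes the highest, 2.66.

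The knockout arrays give the same contrast in separate samples that share no array with it. Of the 632 genes that rose in wild type, 226 rose in knockout (35.8%), against 3.75% of all 11554 genes, and 4 fell. Of the 1045 that fell in wild type, 212 fell in knockout (20.3%), against 4.5% of all, and 9 rose. On the same side of 0 h were 529 of the risen and 905 of the fallen genes. The median log2 difference of the risen genes was 1.68 in wild type and 0.67 in knockout, and that of the fallen -1.25 and -0.54. Selection in wild type by itself makes wild type look larger, so these medians do not measure a genotype effect. Fallen genes with like values in both genotypes included Frzb, Hey2, Nr0b1, Hbegf, Adamts5 and Itih5. Those with knockout values near or above 0 h included Inhbb, Hsd17b1, Foxl2 and Gata4. Other cell types' markers moved differently in the genotypes. The summed oocyte markers went from 67756 to 24915 in knockout, where 24 of 25 fell, and from 36646 to 24056 in wild type. The summed theca markers went from 15103 to 26102 in knockout and from 14519 to 6850 in wild type. Single theca markers did not move together. Of the 7 over the floor, 1 rose and 2 fell in knockout (median -0.08), and 1 rose and 1 fell in wild type (median -0.58). Their part in these counts was not tested.

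**Figure D5:**
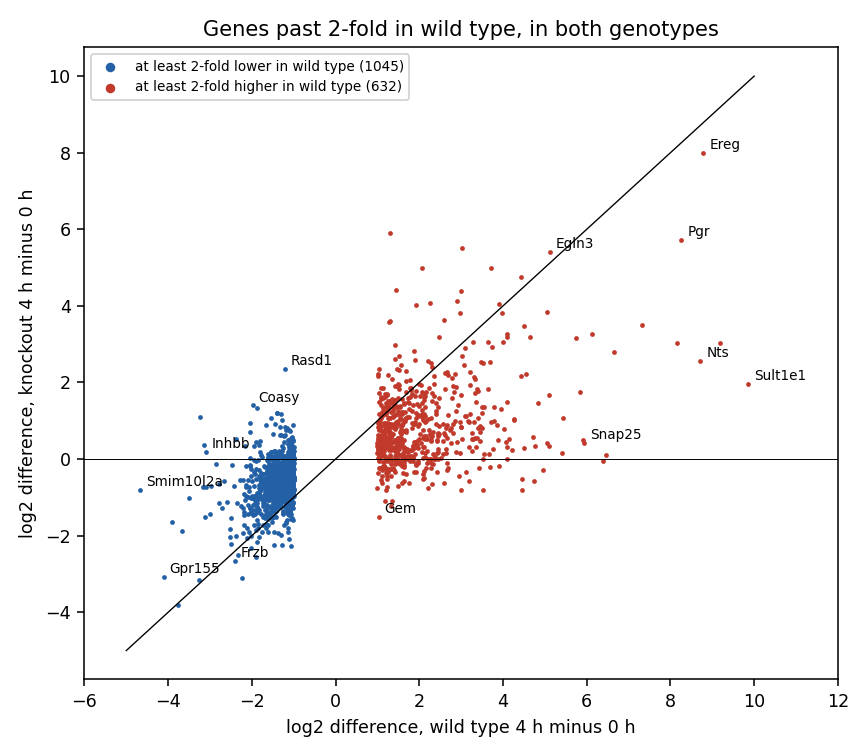
Log2 difference between 4 h and 0 h in wild type (x axis) and in ERK1/2 knockout cells (y axis) for the 1045 genes at least 2-fold lower (blue) and the 632 at least 2-fold higher (red) in wild type, 1 point a gene, with the diagonal marking equal values. Of the blue points 837 and of the red points 447 lie between the horizontal line at 0 and the diagonal; Inhbb, Coasy and Rasd1 lie above 0 among the blue points, and Sult1e1, Nts and Snap25 lie far below the diagonal.

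A test across all genes was possible only by joining the genotypes. An additive limma model of genotype and time on the 6 arrays gave the 4 h minus 0 h difference over both genotypes, with 2 residual degrees of freedom. Its residual is the variation of the time effect between genotypes, not between animals. Of 11153 genes tested, 675 were lower (6.05%) and 376 higher (3.37%) at an adjusted p of 0.05. Among the wild type calls that were tested, 422 of 1016 fallen and 274 of 548 risen genes passed. These counts and the values below rest in part on the 2 wild type arrays that made the calls. They are therefore not a separate check of the calls. Oocyte markers were among the lower genes, with 10 of 25 passing. Ghr had a log2 difference of -1.76 with a standard error of 0.19 (limma adjusted p = 0.0113), lower in both genotypes. For Foxo1 it was -1.28 with a standard error of 0.22 (limma adjusted p = 0.029), and for Hey2 -1.83 with 0.17 (limma adjusted p = 0.00807). Nr0b1 had -2.01 with 0.25 (limma adjusted p = 0.0154). Fshr did not pass, at -1.61 with 0.46 (limma adjusted p = 0.0802), nor did Inhbb, at -1.46 with 0.71 (limma adjusted p = 0.235). On the higher side Ereg had 8.39 with 0.24 (limma adjusted p = 0.000449) and Crem 3.99 with 0.29 (limma adjusted p = 0.00664). Sult1e1 did not pass, at 5.91 with 1.99 (limma adjusted p = 0.114).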

How the data were processed

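Granulosa cell RNA was purified on columns, labelled with biotin as cRNA and read on Affymetrix arrays, per the labels. The deposited table gives 1 intensity per probe set and array, made by RMA in the affy package per the submitters' processing notes. Versions are not given in the sources used here. Intensities were whole numbers on a linear scale, so log2 was taken. Because RMA matches the arrays' distributions to each other, a rise or fall of the total RNA of a cell leaves no trace.

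The platform annotation pairs 34958 of 45101 probe sets with 1 symbol, 932 with several and leaves 9211 unnamed here. Each gene took its probe set of highest mean log2 over the 6 arrays. The floor of 64 lies just above the array medians. It applies to the brighter array, so genes dim at 1 time enter only through the other. List medians over the floor can thus be larger than with no floor. The model used limma 3.58.1 in R 4.3.3 with Benjamini-Hochberg adjustment, on genes with a mean log2 of at least 6, and was tested on simulated data. Alternatives were cyclic loess, centring on the median, the mean of all probe sets of a gene, other floors, a 3-fold threshold and the mean of both 0 h arrays as the baseline.

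The genes and the 48 lists were chosen with earlier results of these data known, and a further 5 lists after the values were seen. Genes named are list members, the 15 largest rises and falls, and the 10 largest among genes at 512 or more on the brighter array and at 64 or more on both.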

Additional observations from a re-analysis of the deposited data

Results flagged for a closer look

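In 13 genes the wild type and knockout responses at 4 h pointed in opposite directions, each by at least 2-fold. With 1 array a group the difference between the genotypes was not tested. Values are the wild type response minus the knockout response, on the log2 scale. In 9 genes wild type fell and knockout rose. Tulp2 (-4.35) went from 226 to 24 in wild type and from 100 to 216 in knockout. Rasd1 (-3.58), a Ras-like GTPase, went from 873 to 376 and from 784 to 4033. Coasy (-3.37), which completes coenzyme A synthesis, went from 1281 to 326 and from 1334 to 3520. The others were Cbfa2t3 (-3.20), the fatty acid elongase gene Elovl6 (-2.63), the ganglioside synthase gene St3gal5 (-2.61), Ksr1 (-2.60), a scaffold of the MAP kinase cascade, Mfap3l (-2.48) and Hspa1a (-2.31).

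In 4 genes wild type rose and knockout fell. Jag1 (2.55), a Notch ligand, went from 364 to 916 in wild type and from 643 to 276 in knockout. Gem (2.53), a small GTPase, went from 498 to 1014 and from 485 to 171. The others were the histone gene H3f3b (2.45) and the protease inhibitor gene Serpinb1a (2.29). At 0 h the wild type and knockout arrays already differed in Tulp2 (226 and 100), Hspa1a (222 and 96), Jag1 (364 and 643) and H3f3b (118 and 397). The calls of Jag1 and Hspa1a were lost with the mean of both 0 h arrays as the baseline.

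Probe sets without exactly 1 gene name were outside the comparison. Of 10143 such probe sets 2823 were over the floor, of which 177 rose 2-fold or more (6.27%) and 141 fell (4.99%).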

How the results depend on the processing

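The count of falling genes depended on the processing more than that of rising genes. It was 1045 as reported, 678 with cyclic loess, 614 with centring and 605 with averaged probe sets. With a 3-fold threshold 221 genes were lower and 348 higher. Other settings left both counts within 1.5 times. The limma count of higher genes was 165 with no floor and 240 with averaged probe sets, against 376. The limma count of lower genes was 419 with cyclic loess, 226 with no floor, 395 without the 2.5 h arrays and 358 with averaged probe sets, against 675.

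Of 296 genes followed across settings, 0 changed direction. All were chosen for being past 2-fold as reported, and the floors leave their differences unchanged. A change of direction was thus unlikely from the start. Their calls were lost in 64 genes with averaged probe sets, 34 with centring, 29 with cyclic loess, 15 with a higher floor and 12 with the mean of both 0 h arrays as the baseline. In 159 of 425 falling genes with another probe set over the floor (37.4%), all other probe sets fell 2-fold too, and in 219 of 299 rising genes (73.2%) they rose. No paired analysis was possible because the labels number no replicates and each genotype and time has 1 array, which also left none to leave out. The limma model compares times within genotype. Rounding to whole numbers gives dim genes coarse steps, and signal near the floor limits the folds of genes that start or end there.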

Other observations

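Of the 5 lists added after the values were seen, that of the primary cilium held the most falls. It was chosen because Alms1 and like genes were among the falls. As all 5 lists were drawn up with the values known, their counts are descriptions. Of 71 genes of the BBS complex, intraflagellar transport and the transition zone, 66 lay below 0 h, 34 fell and 0 rose. Among all 11554 genes 7559 lay below 0 h and 9.04% fell. The median of the cilium list was -0.93, or -0.77 with cyclic loess. Its falls numbered 23 with cyclic loess, 19 with centring and 20 with averaged probe sets. Cc2d2a, of the transition zone, read 1351 at 0 h, 650 at 2.5 h and 318 at 4 h, with 1453, 633 and 537 in knockout. Dzip1 read 351, 170 and 80, the chaperonin-like gene Bbs10 203, 91 and 59, and the transport gene Ift140 806, 460 and 270. In knockout the median was -0.33 and 5 of the 71 fell, where 4.5% of all 11554 genes did. In the hedgehog list, whose signal passes through the cilium, 3 of 15 genes rose (20.0%) and 2 fell (13.3%), against 5.47% and 9.04% of all genes. The ligand genes Ihh (916 to 244) and Dhh (2133 to 702) fell, while the transcription factor gene Gli3 (74 to 266), the co-receptor gene Boc (138 to 327) and Hhip (98 to 467), whose product binds hedgehog ligands, rose.

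Of 29 transcripts associated with FOXO factors, also listed after the values were seen, 13 fell and 3 rose (median -0.96). The falls are 44.8% and the rises 10.3% of the list, against 9.04% and 5.47% of all genes. Besides Foxo1 itself, the falls included the ubiquitin ligase gene Fbxo32 (778, 383 and 174), the PI3 kinase inhibitor gene Pik3ip1 (3172, 1238 and 732), Txnip, which restrains glucose uptake (8714, 3669 and 3059), and the stress gene Sesn1 (2561, 1301 and 914). Knockout values at 0 h and 4 h were 2898 and 837 for Pik3ip1 and 804 and 1010 for Fbxo32. Of 37 genes of branched-chain amino acid and fatty acid oxidation, 35 lay below 0 h, 11 fell and 0 rose (median -0.84). These falls are 29.7% of the list, against 9.04% of all 11554 genes, of which 7559 lay below 0 h. The falls numbered 7 with cyclic loess and 7 with centring. They included Pcca (2139 to 750), Aldh6a1 (1277 to 452) and Hadh (7807 to 2926), while Cpt1a, which admits fatty acids to mitochondria, was at 1410 and 2138. Of 28 glutathione and NRF2-associated genes 10 rose (35.7%, against 5.47% of all genes) and 1 fell (3.57%, against 9.04%), with a median of 0.63. The glutathione transferase gene Gsta2 read 127, 1963 and 3908, Srxn1, a repair enzyme of peroxiredoxins, 95, 3385 and 1519, and Gclc, of glutathione synthesis, 1334, 3677 and 5635. In knockout Gsta2 was at 118 and 96 at 0 h and 4 h.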
